A study of Homo sapiens with 12 samples.

Results

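The genes described here are GATA1, GATA2, ZFPM1, TAL1, NFE2, HDC, CPA3, MS4A2 and P2RY14, 9 of the 60240 genes in the expression table. They comprise blood transcription factors of the GATA family with factors that work beside them, and effector genes known from basophils, mast cells and the megakaryocyte lineage. They were chosen by symbol, with results of these libraries already known. RNA came from the human leukaemia cell line HL-60, an established line of promyelocytes, wild type here and plated at 100000 cells per mL. One arm received 100 nM decitabine at 0, 24 and 48 h, and the control arm received the vehicle DMSO. Libraries from cells collected at 6, 72 and 120 h make 6 groups, each of 2 libraries except DMSO at 72 h, of which 1 library was analysed here. At 6 h the treated cells had received only the first dose. Duplicates were wells of the same line, with no label that names separate cultures, and the p-values below therefore reflect well-to-well spread that may be technical.

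GATA factors bind DNA through zinc fingers and direct blood precursors into the erythroid, megakaryocytic, eosinophil, basophil and mast cell lineages. GATA2 acts in stem and progenitor cells and in mast cells and basophils, and GATA1 takes over many of its sites as erythroid cells and megakaryocytes mature. ZFPM1 (FOG-1) is a cofactor that binds GATA1 and restrains mast cell and eosinophil fates, TAL1 forms a DNA-bound complex with GATA factors, and NFE2 drives late platelet genes. HDC makes histamine, CPA3 is a carboxypeptidase stored in mast cell granules, MS4A2 is the beta chain of the high-affinity IgE receptor, and P2RY14 is a receptor for UDP-glucose. Decitabine is a cytidine analogue that is incorporated into DNA and traps DNA methyltransferases, so that methylation at CpG pairs is lost as cells divide.

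GATA2, GATA1, HDC and CPA3 stood higher with decitabine at both 72 and 120 h, and P2RY14 did so at 120 h. At 6 h limma called none of the 8 members that could be tested, nor any other gene. GATA1 and HDC were at or near 0 in DMSO and reached 80.8 ± 0.974 and 105 ± 3.58 normalised counts (mean ± SD, n = 2) with decitabine at 120 h. TAL1 was listed at 0 in all 11 libraries. A normalised count is the authors' read count of a gene divided by a factor that brings the libraries to a common depth.

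**Figure D1:**
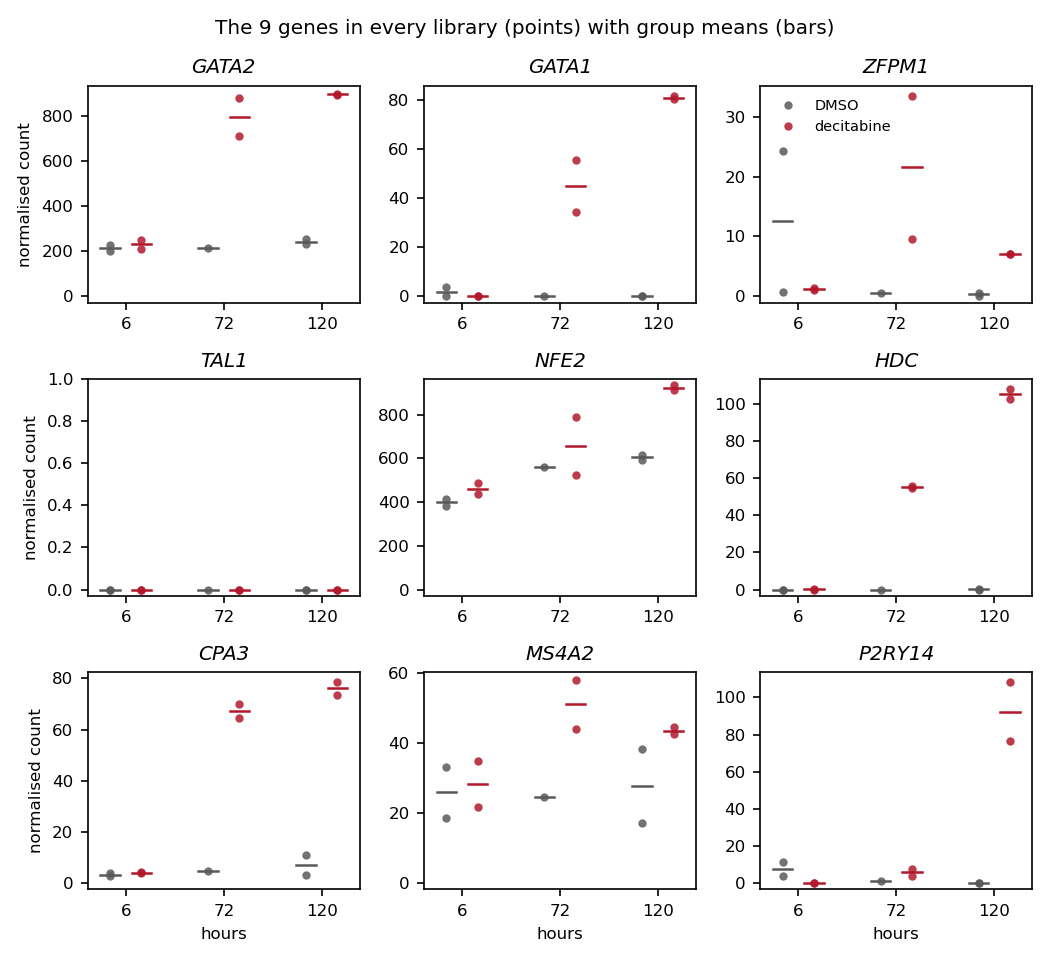
Normalised counts (vertical axes, each starting at 0) of the 9 genes at 6, 72 and 120 h. Points are libraries, grey for DMSO and red for decitabine, and short bars are group means; DMSO at 72 h has 1 library. GATA2, GATA1, HDC and CPA3 are high in both late decitabine groups, P2RY14 at 120 h, and TAL1 lies at 0 throughout.

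The libraries held 12815698 to 15959030 normalised counts each. A single read was worth about 0.407 to 0.961 normalised counts, estimated from the steps between low values, of which 59.3 to 65.3% were whole multiples of the step within 0.01. The libraries divided by 1 transcript, FP671120.7, into 5 with 3.89 to 10.9% of all counts (the 4 of 120 h and decitabine 72 h replicate 1) and 6 with 0.0424 to 0.794%. Comparisons within 120 h lie on one side of that division, whereas the replicates of decitabine at 72 h lie on opposite sides, so 72 h values are given for each. The 8 promyelocyte markers, among them MPO, ELANE and PRTN3, were all detected and summed to 123076 to 226767 normalised counts over the libraries. The summed markers of other cells were higher in the late decitabine libraries than in DMSO. The summed T and NK cell markers (6 genes, 4 tested) were 82.7 to 107 in DMSO at 6 h, 88.0 in DMSO at 72 h and 94.0 to 95.5 in DMSO at 120 h, against 252 to 536 with decitabine at 72 h and 786 to 796 at 120 h. CD3D, GNLY and NKG7 were called higher at 120 h, beside 9.91% of all tested genes. NKG7 kept its call in 7 of 11 fits that left out 1 library. The 4 endothelial markers summed to 448 to 658 in DMSO and 1087 to 1890 in the late decitabine libraries. PECAM1, the only one tested, was called higher at 120 h and at 72 h, where 1.88% of all tested genes were. Its call at 72 h held in 2 of 10 such fits and that at 120 h in 11 of 11. The 5 fibroblast markers summed to 5.12 to 17.1 and 48.7 to 243, with LUM called higher and COL3A1 at 0 in every library, the 5 epithelial markers to 10.3 to 22.0 and 28.8 to 61.6 without a call, and the 4 B cell markers to 1.33 to 3.66 and 3.70 to 21.9. The call of LUM at 72 h held in 6 of 10 such fits and that at 120 h in 11 of 11. The part of these marker genes in the results below was not tested. In bulk RNA, a change in the number of cells of a type and a change in RNA per cell cannot be told apart.

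A gene was tested when at least 2 libraries held 10 or more normalised counts, which 16152 genes did, and called when limma's moderated test on log2(normalised count + 1) gave a Benjamini-Hochberg adjusted p under 0.05. Fold changes on that scale understate the change of low genes. Of the 9 members, 8 were tested, and GATA1 and HDC passed only through decitabine libraries, since both stayed under 10 in all 5 DMSO libraries. CPA3, P2RY14 and ZFPM1 each reached 10 in a single DMSO library (at 10.7, 11.4 and 24.3), so they too needed a decitabine library to pass. At 72 h 4 members were called higher and none lower, beside 1.88% of all tested genes called higher, 0.31% lower and 2.19% in either direction. At 120 h 5 members were called higher, beside 9.91% higher, 6% lower and 15.9% in either direction. Since the members were chosen with these contrasts known, those counts describe the choice, and the values of both times are given without p-values. The gene lists set beside them below were also chosen with earlier results of these data known. Their counts and p-values are therefore descriptions and no independent test. In 5 members (GATA1, GATA2, HDC, CPA3 and MS4A2) all 4 late decitabine libraries lay above all 5 DMSO libraries, which 14.1% of tested genes did, while 9.78% did the reverse. The call at 72 h changed with the libraries used: leaving out either decitabine library of 120 h, or decitabine 6 h replicate 2, left fewer members called, and fewer genes over all tested genes.

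GATA2, on the minus strand at chr3:128479427-128493185 (hg38, GENCODE v29), was expressed in every library. Its normalised counts in DMSO were 227 and 201 at 6 h, 214 at 72 h, and 232 and 252 at 120 h. With decitabine they were 211 and 251 at 6 h, 878 and 711 at 72 h, and 897 and 893 at 120 h. The 6 h libraries of both arms overlapped, and the lowest late decitabine library was above the highest DMSO library. The ratio of group means was 3.71 at 72 h and 3.70 at 120 h, and the log2 fold changes were 1.88 (SE 0.22) and 1.88 (SE 0.18). The difference between the effects of the 2 times was 0.00 (SE 0.29). Against the single DMSO library of 72 h, decitabine replicate 1 differed by 2.03 and replicate 2 by 1.73 on the log2 scale.

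GATA1, on the plus strand at chrX:48786554-48794311, was listed at 0 in 4 of the 5 DMSO libraries and at 3.86 in DMSO 6 h replicate 2. It was listed at 0 in both decitabine libraries of 6 h. It then stood at 55.5 and 34.3 with decitabine at 72 h and at 81.5 and 80.1 at 120 h. No late decitabine library came near the DMSO libraries, and no ratio is given against groups at 0. The log2 fold changes were 5.48 (SE 0.92) at 72 h and 6.35 (SE 0.75) at 120 h, values that depend on the pseudocount of 1 because the DMSO groups were at 0. From 72 to 120 h in treated cells the difference was 0.87 (SE 0.75).

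ZFPM1, on the plus strand at chr16:88453317-88537016, was low and uneven. It stood at 24.3 and 0.790 in DMSO at 6 h, 0.573 at 72 h, and 0 and 0.616 at 120 h. With decitabine it was 0.990 and 1.40 at 6 h, 9.61 and 33.5 at 72 h, and 7.15 and 7.09 at 120 h. DMSO 6 h replicate 1 exceeded both decitabine libraries of 120 h, so the arms overlapped over all times, although they did not within 72 h or 120 h. The log2 fold changes, 3.60 (SE 1.41) at 72 h and 2.68 (SE 1.15) at 120 h, did not lead to a call. TAL1, on the minus strand at chr1:47216290-47232220, was listed at 0 in every library and was not tested. GATA2 and GATA1 stood higher in the late decitabine libraries than in DMSO, with TAL1 at 0 in both. The related factor LYL1 was present at 259 to 1088 normalised counts in all libraries. Complexes of these factors were not measured.

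NFE2, on the minus strand at chr12:54292111-54301121, was the most abundant member per length in DMSO. It stood at 383 and 416 in DMSO at 6 h, 559 at 72 h, and 595 and 615 at 120 h, and with decitabine at 437 and 485, 789 and 523, and 935 and 912. Decitabine 72 h replicate 2 lay below the DMSO library of the same time and replicate 1 above it (log2 differences of -0.10 and 0.50), whereas both 120 h decitabine libraries exceeded every DMSO library. The ratio of means at 120 h was 1.53, with a log2 fold change of 0.61 (SE 0.21), and the gene was not called at either time. In DMSO its log2 difference between 120 and 6 h was 0.60 (SE 0.21), which did not pass (limma adjusted p = 0.894, unadjusted p = 0.0191). The DMSO libraries of 120 h are all high in FP671120.7 and those of 6 h all low, so that time and this division cannot be told apart in that comparison.

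The upstream sequences of GATA2, ZFPM1 and GATA1 are shown because the methylation that decitabine lowers lies at CpG pairs, and these genes differ in how many they carry. They are the bases before the RefSeq start site in GRCh38.p14, 5′ to 3′ on the gene's own strand, with every CpG in capitals. GATA2 is at chr3:128493202-128493451 (minus strand), ZFPM1 at chr16:88453030-88453279 (plus) and GATA1 at chrX:48786340-48786563 (plus, ending 10 bases into the first GENCODE exon).
GATA2: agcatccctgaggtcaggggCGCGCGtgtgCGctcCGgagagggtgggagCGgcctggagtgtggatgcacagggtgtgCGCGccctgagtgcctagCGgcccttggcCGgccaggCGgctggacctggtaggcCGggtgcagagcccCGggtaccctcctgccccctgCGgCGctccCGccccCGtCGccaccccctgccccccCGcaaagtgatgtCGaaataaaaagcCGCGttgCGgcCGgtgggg
ZFPM1: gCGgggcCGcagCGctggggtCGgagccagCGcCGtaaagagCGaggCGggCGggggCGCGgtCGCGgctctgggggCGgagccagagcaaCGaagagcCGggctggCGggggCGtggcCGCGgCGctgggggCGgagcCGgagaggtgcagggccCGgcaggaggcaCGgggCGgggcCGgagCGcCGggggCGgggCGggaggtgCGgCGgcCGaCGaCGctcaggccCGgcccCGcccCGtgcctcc
GATA1: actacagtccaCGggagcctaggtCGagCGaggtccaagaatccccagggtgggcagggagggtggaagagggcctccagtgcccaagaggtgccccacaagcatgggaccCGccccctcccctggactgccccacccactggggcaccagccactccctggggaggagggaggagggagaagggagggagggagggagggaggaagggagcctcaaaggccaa

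The GATA2 window held 24 CpG pairs and the ZFPM1 window 39, against 4 in the whole 250 bases upstream of GATA1. The median over 35114 windows of 250 bases was 11. A second GATA2 start site had 18, the start sites of TAL1 had 24 and 14, and HDC had 4. Of the members at or near 0 in DMSO at 120 h and higher with decitabine, GATA1, HDC and P2RY14 had 4 or fewer. ZFPM1, at 0 and 0.616 in DMSO and 7.15 and 7.09 with decitabine at 120 h, had 39. A count of 4 lay at percentile 31.8 of all windows, and a link of CpG count to expression was not tested. The windows are set by RefSeq start sites, and GENCODE v29 exons of the same gene cover all 250 bases of the HDC window, 248 of that of MS4A2, 123 of the second P2RY14 window, 40 of that of CPA3 and 36 of that of GATA1. TAL1, with a CpG-rich window, stayed at 0. DNA methylation was not measured in these libraries, and the CpG count is a description of the sequence. Windows were found for 8 of the 9 members, 11 in all, and NFE2 had none in the table used.

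**Figure D2:**
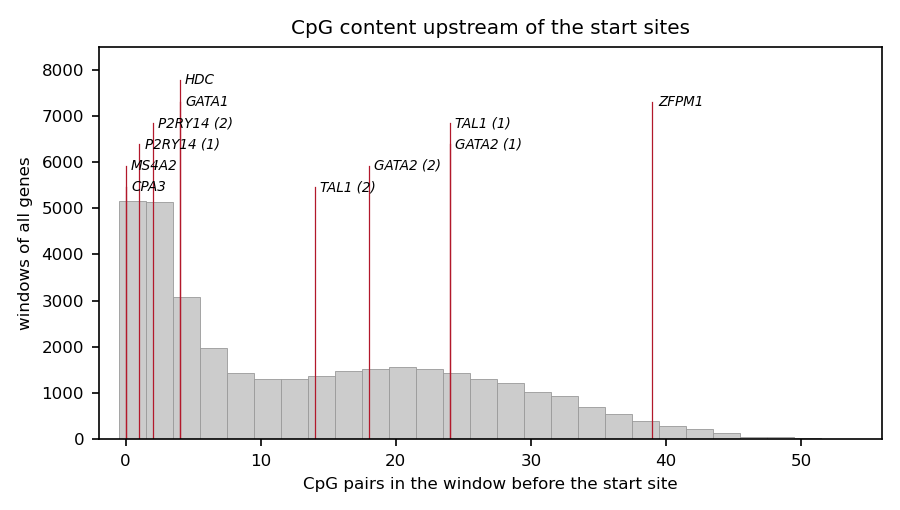
Number of CpG pairs in the 250 bases before the start site (horizontal axis) for all 35114 windows (grey bars, vertical axis in windows) and for the 11 windows of 8 members (red lines, with the window number where a gene has 2). CPA3 and MS4A2 lie at 0, P2RY14, GATA1 and HDC at 4 or fewer, and ZFPM1 at 39.

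HDC, on the minus strand at chr15:50241947-50266026, encodes histidine decarboxylase. It was listed at 0 in 4 of the 5 DMSO libraries and stood at 0.562 in DMSO 120 h replicate 2. With decitabine it was 0 and 0.529 at 6 h, 55.9 and 54.9 at 72 h, and 103 and 108 at 120 h. The late decitabine pairs were close to each other and far from every other library, and replicates 1 and 2 of 72 h differed from DMSO by 5.83 and 5.80 on the log2 scale although they lay on opposite sides of the FP671120.7 division. The log2 fold changes were 5.82 (SE 0.63) and 6.41 (SE 0.51), again set partly by the pseudocount. The difference from 72 to 120 h in treated cells was 0.92 (SE 0.51).

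CPA3, on the plus strand at chr3:148865256-148897196, encodes mast cell carboxypeptidase A. Its normalised counts in DMSO were 3.68 and 2.63 at 6 h, 4.77 at 72 h, and 10.7 and 3.08 at 120 h. With decitabine they were 4.12 and 3.89 at 6 h, 70.2 and 64.6 at 72 h, and 78.5 and 73.6 at 120 h. The 4 late decitabine libraries lay between 64.6 and 78.5, far above the highest DMSO library at 10.7. The ratio of means was 14.1 at 72 h and 11 at 120 h, and the log2 fold changes were 3.57 (SE 0.62) and 3.48 (SE 0.51), so that the 72 to 120 h difference in treated cells, 0.17 (SE 0.51), was smaller than its error.

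MS4A2, on the plus strand at chr11:60088261-60098466, had a low level in all libraries. It was 18.5 and 33.3 in DMSO at 6 h, 24.4 at 72 h, and 17.2 and 38.2 at 120 h. With decitabine it was 21.8 and 34.8 at 6 h, 43.9 and 58.2 at 72 h, and 42.5 and 44.5 at 120 h. All late decitabine libraries were above all DMSO libraries, but the spread within DMSO, 17.2 to 38.2, was wide beside the difference. The ratio of means was 2.09 at 72 h and 1.57 at 120 h, the log2 fold changes were 1.02 (SE 0.56) and 0.74 (SE 0.46), and the gene was not called. Of the other chains of the IgE receptor, the alpha chain FCER1A was listed at 0 in all 5 DMSO libraries and reached 4.45 and 4.31 with decitabine at 120 h, under the filter. The gamma chain FCER1G had 181 and 177 normalised counts in DMSO at 6 h, 229 at 72 h, and 250 and 219 at 120 h, against 598 and 120 with decitabine at 72 h and 805 and 975 at 120 h. Its log2 fold change at 120 h was 1.92 (SE 0.59, limma adjusted p = 0.0618), so it was not called.

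Sequences before the RefSeq start sites of CPA3 and MS4A2 are shown because they hold letters that GATA factors are known to bind. The letters searched were AGATAA and its 3 forms that begin with T, end with G, or both, on either strand, and matches are in capitals. CPA3 is at chr3:148865046-148865265 (plus, ending 10 bases into the first GENCODE exon) and the MS4A2 stretch at chr11:60088598-60088627 (plus), both GRCh38.p14 from RefSeq. The MS4A2 stretch lies inside an MS4A2 exon of GENCODE v29, whose annotated start is farther upstream.
CPA3: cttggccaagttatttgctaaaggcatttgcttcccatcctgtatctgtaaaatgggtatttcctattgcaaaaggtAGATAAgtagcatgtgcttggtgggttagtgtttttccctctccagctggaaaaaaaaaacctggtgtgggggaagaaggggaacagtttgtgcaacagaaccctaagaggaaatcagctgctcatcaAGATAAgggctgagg
MS4A2: cagccaagaaacTTATCTgtctggcaaatg

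CPA3 had 2 matches, whose first bases lay 173 and 45 bases before the start site, and MS4A2 had 1 on the opposite strand, 54 bases before it. TAL1 also had 1, 35 bases before its first start site. Of all windows, 22.3% held at least 1 match and 4.96% held 2 or more, so a single match is common. GATA1, GATA2, ZFPM1, HDC and P2RY14 had no match in their windows. CPA3 and the first P2RY14 window also matched a composite motif (CTG, then 8 or 9 bases, then GATA), as did 3.22% of windows. In CPA3 this overlaps the second single match, and none of these matches is a measured binding site.

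P2RY14, on the minus strand at chr3:151212117-151278467, stood high with decitabine at 120 h and not at 72 h. In DMSO it was 11.4 and 3.54 at 6 h, 0.762 at 72 h, and listed at 0 in both 120 h libraries. With decitabine it was listed at 0 in both libraries of 6 h, stood at 3.70 and 7.40 at 72 h, and reached 108 and 76.5 at 120 h. Only the 120 h decitabine libraries were above all others, and the 72 h pair overlapped the DMSO libraries of 6 h. The log2 fold change was 1.83 (SE 0.79) at 72 h, without a call, and 6.52 (SE 0.64) at 120 h. In treated cells the level at 120 h was 3.87 (SE 0.64) above that at 72 h, and the effect of decitabine at 120 h exceeded that at 72 h by 4.69 (SE 1.02). Neither of those differences led to a call, beside 0.13% of tested genes called for the first (0.124% higher, 0.00619% lower) and 0% for the second. Without decitabine 72 h replicate 1 many more of all tested genes were called in both of them, P2RY14 and NFE2 among them, so those calls do not set these members apart. Over 20 alternative fits the first difference of P2RY14 lay between 3.21 and 4.29. Over 19 alternative fits its second difference lay between 3.41 and 5.32.

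The 250 bases before the first RefSeq start site of P2RY14, at chr3:151278543-151278792 (minus strand, GRCh38.p14), are shown with the CpG in capitals, since this stretch holds a single CpG pair and the gene stood at 92.3 ± 22.4 normalised counts (mean ± SD, n = 2) with decitabine at 120 h against 0 in DMSO.
P2RY14: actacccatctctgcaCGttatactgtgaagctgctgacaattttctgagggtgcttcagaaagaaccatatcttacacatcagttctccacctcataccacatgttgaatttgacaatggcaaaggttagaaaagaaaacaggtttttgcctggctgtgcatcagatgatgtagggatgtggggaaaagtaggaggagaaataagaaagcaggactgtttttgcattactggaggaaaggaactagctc

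P2RY14 lies inside MED12L, which runs on the opposite strand at chr3:151085697-151437072. MED12L stood at 0.429 and 0.614 in DMSO at 6 h, 21.5 at 72 h, and 1.78 and 9.34 at 120 h, against 1.05 and 23.1 with decitabine at 72 h and 1.00 and 1.09 at 120 h. It was therefore at about 1 in the libraries in which P2RY14 was highest, and its log2 fold change at 120 h was -1.39 (SE 1.14, limma adjusted p = 0.466). P2RY13, a nearby ADP receptor gene, went from 31.1 and 29 in DMSO to 116 and 94.7 with decitabine at 120 h (1.77, SE 0.41, adjusted p = 0.0222), a call lost without any one of the 4 libraries of 120 h. P2RY12, the platelet ADP receptor of the same cluster, was listed at 0 in every library. The counts that follow stand beside 9.91% of all tested genes called higher and 6% lower at 120 h, and 1.88% and 0.31% at 72 h. Among 13 genes, made up of P2Y and related receptors together with MED12L, 9 were tested. At 120 h 3 rose (P2RY10 by 4.54, GPR34 by 2.78 and P2RY13) and none fell, with a median log2 fold change of 0.20 beside 0.07 over all genes. A lower call appeared without either decitabine 72 h library, when more genes were called over all genes too. At 72 h GPR34 alone was called (1.5, SE 0.29, adjusted p = 0.0433), and it held in 1 of 10 leave-one-out fits.

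**Figure D3:**
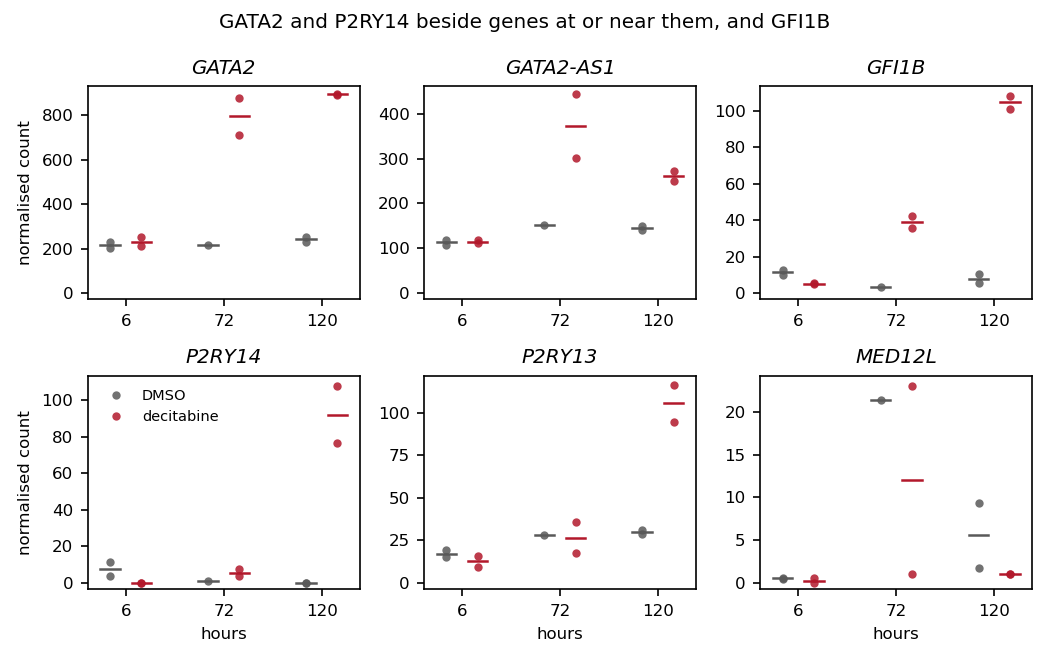
Normalised counts (vertical axes from 0) at 6, 72 and 120 h of GATA2 with the antisense gene GATA2-AS1, of GFI1B, and of P2RY14 with P2RY13 and MED12L. Points are libraries (grey DMSO, red decitabine) and bars group means. GATA2-AS1 is highest at 72 h, GFI1B is high in both late decitabine groups, and MED12L is at about 1 where P2RY14 is highest.

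GATA2-AS1 overlaps GATA2 on the opposite strand, at chr3:128489212-128502348. It stood at 108 and 118 in DMSO at 6 h, 152 at 72 h, and 141 and 149 at 120 h, against 301 and 445 with decitabine at 72 h and 249 and 273 at 120 h. It rose by 0.84 on the log2 scale at 120 h (SE 0.22, limma adjusted p = 0.0354), a call lost without any one of the libraries of 6 or 120 h, and missed the threshold at 72 h (1.27, SE 0.27, adjusted p = 0.0562). The kit keeps the strand, but the strand setting of the authors' counting was not given in the sources used here, so reads of GATA2 and its antisense partner cannot be told apart in the stretch they share. In treated cells GATA2-AS1 at 120 h differed from 72 h by -0.49 (SE 0.22, adjusted p = 0.318) and GATA2 by 0.18 (SE 0.18).

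Few of the other genes next to the members could be tested. Of the 36 RefSeq neighbours, 2 on each side of each member, 29 were in the table and 10 were tested, of which 1 rose and 1 fell at each late time, beside 2.19% of all tested genes called at 72 h and 15.9% at 120 h. At 72 h SLC27A2 beside HDC rose (1.82, SE 0.32, limma adjusted p = 0.0312, called in 2 of 10 fits that left out 1 library) and MS4A6A beside MS4A2 fell by 3.17 (SE 0.34, adjusted p = 0.00355). At 120 h GATA2-AS1 rose and MS4A6A fell by 2.37 (SE 0.28, adjusted p = 0.00121). MS4A6A, a gene of monocytes and macrophages, had 110 to 167 normalised counts in the DMSO libraries, and 17.1 and 14 with decitabine at 72 h and 18.5 and 26.4 at 120 h, on the other side of MS4A2 from MS4A3. MS4A3, a gene of basophils and granulocyte precursors, had 5357 to 6736 in DMSO and 9423 to 22020.0 in the late decitabine libraries, and was not called at 120 h (0.89, SE 0.34, adjusted p = 0.118).

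**Figure D4:**
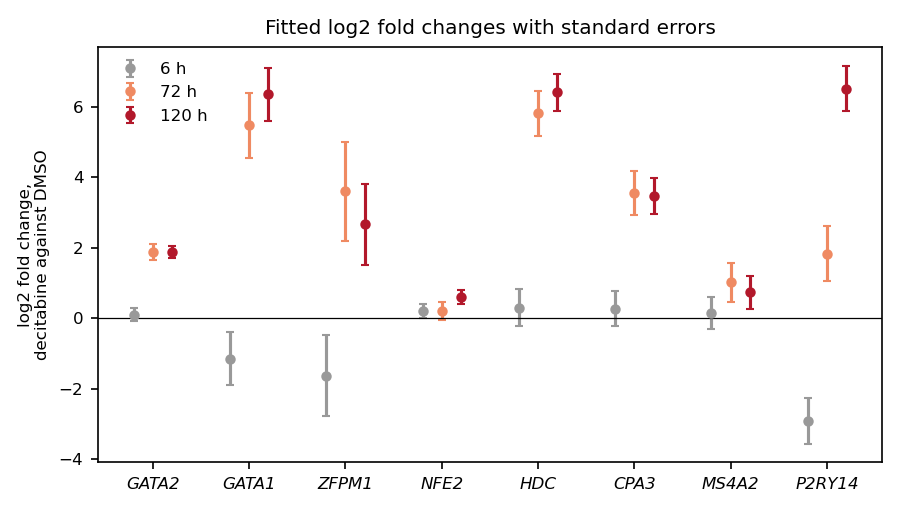
Fitted log2 fold changes of decitabine against DMSO (vertical axis, on log2 of normalised count + 1) with standard errors for the 8 tested genes at 6, 72 and 120 h. At 6 h the values lie on both sides of 0, GATA2 and CPA3 are alike at 72 and 120 h, and P2RY14 separates the 2 times most.

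At 6 h limma called none of the 16152 genes (0%), of which 541 had an unadjusted p under 0.05. Among the members P2RY14 alone had such a p, with a log2 fold change of -2.91 (SE 0.64, adjusted p = 1), resting on 11.4 and 3.54 normalised counts in DMSO against 0 in both decitabine libraries. The log2 fold changes of GATA2 and NFE2 at 6 h were 0.11 (SE 0.18) and 0.21 (SE 0.21). Between DMSO at 120 and 6 h no gene was called (0%), with 865 at an unadjusted p under 0.05, among them the members NFE2 and P2RY14. From 72 to 120 h in treated cells 0 of 8 members were called by limma, with an unadjusted p under 0.05 in 2, NFE2 and P2RY14.

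Per kilobase of exon, the treated cells of 120 h held the members in the order NFE2 (374 normalised counts per kb), GATA2 (201), GATA1 (53.9), CPA3 (41.2), P2RY14 (32.8), HDC (26.7), MS4A2 (9.77) and ZFPM1 (1.17). Neighbours in that order did not overlap between libraries except P2RY14, at 27.2 to 38.4, and HDC, at 26.0 to 27.3. In DMSO at 120 h the order was NFE2 (245), GATA2 (54.3), MS4A2 (6.22) and CPA3 (3.73), the last 2 overlapping, with HDC at 0.0710, ZFPM1 at 0.0504, and GATA1 and P2RY14 at 0. These lengths are the union of the GENCODE v29 exons of each gene, which need not be the transcripts expressed here.

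Over the 11 libraries HDC and GATA2 had the most similar pattern among pairs of members (Pearson r of 0.995 on log2(normalised count + 1)), followed by CPA3 and GATA2 (0.972) and CPA3 and HDC (0.966). NFE2 and ZFPM1 were the least alike (0.127). Among all tested genes the nearest to GATA2 were HDC (0.9955), SH2D1A (0.9939) and CYP1B1 (0.9934), the nearest to GATA1 were TRAJ6 (0.9919), HPSE (0.9905) and THSD7A (0.9903), and the nearest to HDC was AL160408.3 (0.9969). TUBA3D (0.9901), EMILIN2 and LINC02470 were nearest to CPA3, ITFG1 (0.9513), NAMPTP1 and OLR1 to P2RY14, and SELENON (0.9776), PPP1R18 and RELB to NFE2. RAPH1 (0.9213), TCEAL4 and YIPF5 were nearest to ZFPM1, and AL118506.1 (0.9701), AC019117.4 and AC013394.1 to MS4A2. These values describe libraries that share 6 treatment groups and the same scaling.

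Among 38 other GATA family genes and partners, 30 were tested, and GFI1B stood out. GFI1B, a repressor needed for erythroid cells and megakaryocytes, had 3.11 to 12.7 normalised counts in the 5 DMSO libraries, 42.4 and 35.7 with decitabine at 72 h and 101 and 108 at 120 h. It rose at 72 h (3.28, SE 0.47, limma adjusted p = 0.0133) and at 120 h (3.63, SE 0.38, adjusted p = 0.000713), and was the only gene of the list called at 72 h. Leaving out either decitabine 72 h library raised the list's calls at 72 h, and also the calls over all genes. With library weights the list had none at that time. At 120 h ERG (2.24), STAT5A (1.12) and STAT5B (1.07) also rose, and MAFK, a small partner of NFE2, fell by 1.18. The list's higher and lower calls at 120 h became fewer without either decitabine 120 h library or DMSO 120 h replicate 2. They became more without either decitabine 72 h library, and the calls over all genes moved the same way in each case. The list's median log2 fold change at 120 h was 0.02, beside 0.07 over all genes. Its calls at 120 h, 4 higher and 1 lower of 30, were near the 15.9% of all tested genes called in either direction. At 72 h 1.88% of all tested genes were called higher and 0.31% lower. Core members of GATA complexes were abundant and showed no call: LMO2 changed by -0.10 (SE 0.22, adjusted p = 0.802) and LDB1 by 0.22 (SE 0.15, adjusted p = 0.382) at 120 h. LYL1 changed by -0.07 (SE 0.46, adjusted p = 0.938) and RUNX1 by 0.44 (SE 0.16, adjusted p = 0.0937). KLF1, the erythroid factor, held 1.92 to 10.7 normalised counts and was not tested.

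Of 13 myeloid factors that act against or beside GATA factors, all were tested. IRF8, a monocyte and dendritic cell factor, fell by 1.5 (SE 0.21, limma adjusted p = 0.0125) at 72 h and by 2.47 at 120 h (SE 0.17, adjusted p = 0.00012). EGR2 (4.51), EGR1 (2.44), ID2 (2.03) and CEBPE (0.89) rose at 120 h. The list had 1 lower and 0 higher calls at 72 h. Without decitabine 72 h replicate 1 both counts rose, and without replicate 2 the higher count rose. The count of 4 higher at 120 h fell without decitabine 120 h replicate 1 and rose without either decitabine 72 h replicate. Calls over all genes moved the same way in each case. SPI1 (PU.1), which opposes GATA1, changed by 0.08 (SE 0.23, adjusted p = 0.865) and CEBPA by -0.61 (SE 0.41, adjusted p = 0.368). The list's median log2 fold change was -0.09 at 72 h and 0.89 at 120 h, beside 0.09 and 0.07 over all genes. Over all tested genes 1.88% were called higher and 0.31% lower at 72 h, and 9.91% and 6% at 120 h.

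Basophil and mast cell genes other than the members, a list chosen with earlier results of these data known, were higher more often than lower. Of 30 listed, 18 were tested, 7 of which stayed under 10 in all DMSO libraries. At 72 h 6 rose and none fell (PTGDR2, HRH4, SIGLEC6, IL1RL1, AKAP12 and CD63), beside 1.88% of all tested genes called higher and 0.31% lower. At 120 h 13 rose and none fell, beside 9.91% and 6%. Leaving out 1 library changed the number that rose at 120 h, while none fell in any such fit. The median log2 fold changes were 1.30 and 2.55, beside 0.09 and 0.07 over all genes. IL1RL1, the receptor for interleukin-33, had 1.79 to 4.14 normalised counts in DMSO and 492 and 477 with decitabine at 120 h (6.92, SE 0.47, limma adjusted p = 0.000106). PTGDR2, the prostaglandin D2 receptor of basophils and eosinophils, had 1.38 to 1.99 in DMSO and 274 and 266 (6.70, SE 0.40, adjusted p = 7.43e-05). AKAP12 rose by 4.81 and RGS13 by 4.51 at 120 h. HRH4, a histamine receptor, rose by 2.35 at 72 h and 3.37 at 120 h. At 72 h more of the list rose without either decitabine 72 h library, and some fell without replicate 1, while the calls over all genes became more as well. AKAP12 kept its call at 72 h in 4 and CD63 in 2 of 10 leave-one-out fits. Of the tryptases, TPSAB1 was at 0 in every library but decitabine 120 h replicate 1, at 1.59, and TPSB2 changed by 0.07 at 120 h (SE 1.04, adjusted p = 0.974). KIT, the mast cell growth factor receptor, changed by 0.28 (SE 0.35, adjusted p = 0.65). Of 12 eosinophil genes, all tested, 3 stayed under 10 in all DMSO libraries and so entered the test only through decitabine libraries. Eosinophil genes, a list that shares CEBPE with the myeloid factors, rose as well, 5 of 12 at 72 h (EPX, PRG2, PRG3, IL5RA and ADGRE1) and all 12 at 120 h, with EPX at 83.0 and 92.5 in DMSO and 5582 and 5693 with decitabine at 120 h. More were called at 72 h without either decitabine 72 h replicate, as over all genes. Without either decitabine 120 h library fewer than 12 were called at 120 h, and CEBPE lost its call.

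**Figure D5:**
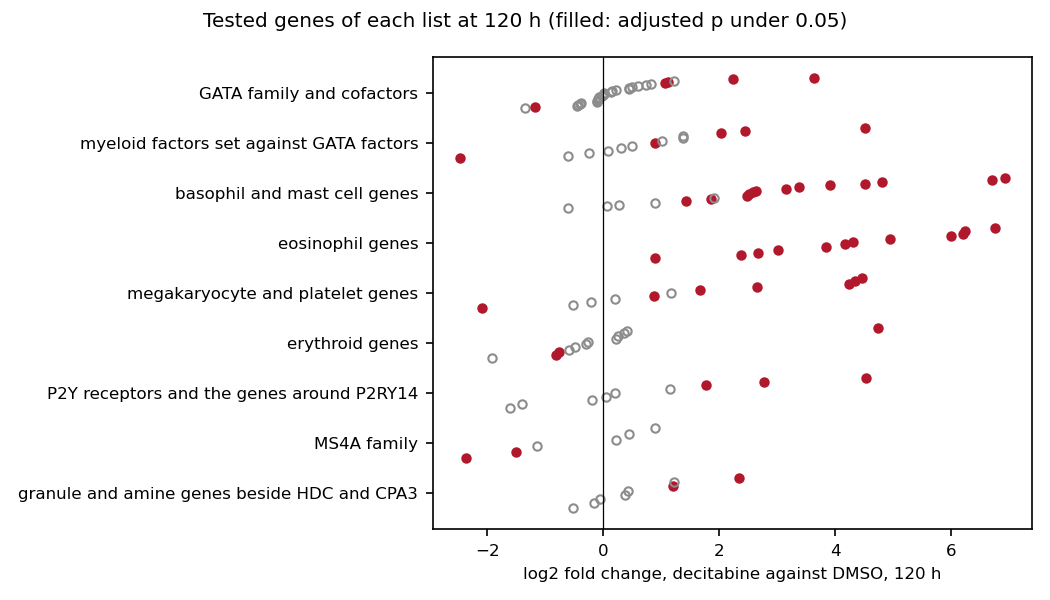
Log2 fold changes of decitabine against DMSO at 120 h (horizontal axis) of the tested genes of each list, filled where called. Basophil, mast cell and eosinophil genes lie mostly to the right of 0, and GATA partners and erythroid genes lie around it.

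Megakaryocyte and platelet genes gave a mixed picture. Of 30 listed, 11 were tested and 5 were at 0 in every library, PF4 among them. Of the tested genes 3 stayed under 10 in all DMSO libraries, so they entered the test only through decitabine libraries. At 72 h ITGA2B and THBS1 rose, beside 1.88% of all tested genes called higher. At 120 h 6 genes rose and 1 fell, beside 9.91% and 6% of all tested genes, with a median of 1.16. ITGA2B, the platelet integrin alpha-IIb and a GATA1 target, had 3.33 to 21.4 normalised counts in DMSO, 26.4 and 46.7 with decitabine at 72 h, and 352 and 346 at 120 h (4.23, SE 0.39, limma adjusted p = 0.000415). CD9 rose by 4.46, THBS1 by 4.35 and GP1BB by 2.64 at 120 h, while F13A1 fell by 2.09. Both 72 h calls were lost when either decitabine library of 120 h or either DMSO library of 6 h was left out, and also with library weights or without the filter on low values. More of the list was called at 72 h without decitabine 72 h replicate 1, as over all genes. The 72 h call of ITGA2B held in 1 of 10 leave-one-out fits, and GP1BB lost its call without any one of the libraries of 6 or 120 h. Of 32 erythroid genes listed, 10 were at 0 throughout and 12 were tested. XK rose (3.10 at 72 h, 4.74 at 120 h), and UROD (by 0.82) and TFRC (by 0.76) fell at 120 h, with a median of -0.27. Beside these, 1.88% of all tested genes were called higher at 72 h, and 9.91% higher and 6% lower at 120 h. Leaving out either decitabine 120 h replicate ended the call of XK at 72 h, and leaving out any one library of 120 h ended those of UROD and TFRC. Without decitabine 72 h replicate 1 more of the erythroid list was called at 72 h, higher and lower, as over all genes.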

How the data were processed

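Stranded RNA-seq libraries (ScriptSeq v2 after RiboZero Gold depletion, 50-base single-end reads) were described per the labels' protocols. The submitters' processing notes name hg38, STAR, featureCounts, Salmon 1.2.1, DESeq2 and limma, without their order. The authors deposited 1 table of normalised counts, read here as signal: counts per gene divided by a factor per library. Per the file headers, 12 libraries are named above 11 columns of values. The first heading, "name", was taken to head the symbols, since otherwise a library name would head them, and the libraries follow in order. As a check, replicates lay closer in that reading (mean distance 0.299 within groups, 0.439 between) than with each name at its own place in the line (0.429 and 0.426). All results depend on it. DMSO 72 h replicate 2 was not analysed here.

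Values were tested with limma 3.58.1 (R 4.3.3) on log2(value + 1) for the 16152 genes with 10 or more in 2 libraries, with 1 mean per group over all 11 libraries, an intensity trend and Benjamini-Hochberg adjustment. The fit was tested on simulated data with the same spread in all libraries and changes only in genes well above the filter. That test does not cover genes near 0 or replicates that differ widely. Contrasts were decitabine against DMSO at each time, 120 against 72 h in decitabine, 120 against 6 h in DMSO, and the difference between the late effects. The median log2 change over all genes was 0.09 at 72 h and 0.07 at 120 h. Alternatives were another pseudocount, filter, scaling (quantile, or a trimmed mean of M-values, TMM, coded for this work) or limma setting, a replicate block, all DMSO libraries as controls at 72 h, and each library left out.

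The members and gene lists were chosen with earlier results of these data known. The genes named are the members, the 4 largest calls of each list in each direction at 120 h, all list calls at 72 h, a set of named partners, RefSeq neighbours, and the 3 genes most like each member by Pearson r. The result of a single gene among the named partners is not reported here. Upstream sequences are RefSeq's for GRCh38.p14.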

Additional observations from a re-analysis of the deposited data

How the results depend on the processing

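The number of genes called changed widely with single libraries and with library weights. With 1 library left out it ranged from 137 to 4756 at 72 h and from 789 to 4940 at 120 h, from 0 to 3 at 6 h, from 0 to 5192 for decitabine 120 against 72 h, from 0 to 12 for DMSO 120 against 6 h and from 0 to 2915 for the difference of the late effects. The highest of these counts came without decitabine 72 h replicate 1, except at 6 h (without decitabine 6 h replicate 2), and DMSO time also gave 12 without decitabine 72 h replicate 2. Members called ranged from 2 to 4 at 72 h, 5 to 6 at 120 h, and 0 to 2 for both decitabine 120 against 72 h and the difference of effects. Among other settings, library weights gave 80 genes and 1 member at 72 h, 5031 genes at 120 h, and 0 and 3 for the decitabine and the DMSO time comparisons. No filter on low values gave 2 members at 72 h, and 227, 1 and 6 genes for those time comparisons and the difference of effects. A pseudocount of 5 gave 51 genes and 1 member, and quantile normalisation 38 genes, for decitabine 120 against 72 h. Limma without a trend gave 3 genes at 6 h, 1 for DMSO time and 1 for the difference of effects, and all DMSO libraries as controls gave 2917 genes at 72 h. The decitabine replicates of 72 h differed by a median of 0.590 on the log2 scale, beside 0.190 to 0.261 for the replicates of the other groups. All groups share 1 spread in the fit. The cause of the changing counts was not tested.

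The fit took the libraries as unpaired. Deviations of same-numbered libraries, over all tested genes, correlated at -0.0777 to 0.124 and were over 0.1 in 2 of 10 pairs of groups. Correlations this low do not exclude pairing in some genes. With a replicate block 215 genes were called at 72 h and 1 for decitabine 120 against 72 h, with 3 members at 72 h and 5 at 120 h.

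GATA1, GATA2, HDC, CPA3 and P2RY14 kept their direction at 120 h, and the first 4 at 72 h, in every alternative run. Values near 0 changed sign: at 6 h MS4A2 was -0.18 without decitabine 6 h replicate 2 and -0.26 without DMSO 6 h replicate 1, and GATA2 -0.0173 without decitabine 6 h replicate 2; over all left-out libraries MS4A2 lay between -0.26 and 0.55 and GATA2 between -0.0173 and 0.23. For DMSO 120 against 6 h, MS4A2 was -0.0398 with quantile normalisation, -0.50 without DMSO 120 h replicate 2 and -0.36 without DMSO 6 h replicate 1, and CPA3 -0.0150 without DMSO 120 h replicate 1, with ranges of -0.50 to 0.60 and -0.0150 to 1.51 over the left-out libraries. GATA1 at 72 h was called in 7 of 10 fits with 1 library left out and CPA3 in 4, while GATA2 and HDC were called in 10. Levels under about 1 normalised count rest on 1 or 2 reads, so differences there were not detectable at this depth.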

Other observations

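Other carboxypeptidases, amine enzymes and granule genes were set beside HDC and CPA3. Of 17 such genes, 8 passed the filter and 3 had no signal in any library. None was called at 72 h by limma (an unadjusted p under 0.05 in 1), beside 2.19% of all tested genes. At 120 h HNMT, which degrades histamine, rose by 2.33 (SE 0.62, limma adjusted p = 0.0365). It had 32.0 and 7.98 normalised counts in DMSO and 101 and 72.5 with decitabine. SRGN, the granule proteoglycan, rose by 1.2 (SE 0.34, adjusted p = 0.0466). Over all tested genes 9.91% were called higher and 6% lower at 120 h. HNMT lost its call in 5 of 11 fits with 1 library left out (either decitabine library of 120 h, DMSO 120 h replicate 2, or either DMSO library of 6 h), and SRGN lost it without any one of the libraries of 6 or 120 h. Among 15 other genes of the MS4A family 6 were tested, and MS4A7, a macrophage gene, fell by 1.5 at 120 h (SE 0.37, adjusted p = 0.0293), again without any call once a library of 6 or 120 h was left out.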
